A study of Arabidopsis thaliana with 6 samples.

Results

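The genes described here build the carbon-fixing and chlorophyll-making machinery of a leaf. They are 33 nuclear genes, chosen by locus identifier from the 36793 loci of the count table, for the Calvin cycle, photorespiration and chlorophyll synthesis. The carbon members number 17: Rubisco small subunits and Rubisco activase, enzymes that regenerate the carbon acceptor, photorespiratory enzymes and carbonic anhydrases. The chlorophyll members number 16, from the first dedicated step of tetrapyrrole synthesis to chlorophyll b.

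Leaves were cut from 2-week-old Arabidopsis thaliana seedlings of the Col-0 accession and placed on a medium that induces callus, a mass of dividing and partly dedifferentiated cells. RNA was sequenced in bulk from callus after 7 days (3 libraries) and after 12 days (3 libraries), which the series calls biological replicates. Both groups share the Col-0 genotype, the explant and the medium, and day of culture is the only difference the labels give. The sources used here do not give the light, the hormone content, whether leaf remnants were trimmed off, or whether replicates came from separate plants or plates. P-values therefore measure the spread between these libraries.

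In a green leaf, Rubisco joins carbon dioxide to a sugar phosphate in the chloroplast, and the other Calvin cycle enzymes reduce the product and rebuild the acceptor. When Rubisco takes up oxygen instead, photorespiration recycles the by-product through peroxisomes and mitochondria. Chlorophyll is built from glutamate through porphyrin precursors that are shared with haem, until magnesium chelatase commits the porphyrin to the chlorophyll branch. Most of these genes are known for strong expression in lit leaf mesophyll and low expression in roots, and callus grown from leaf on such a medium is known for root-like features.

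The Rubisco small subunit is encoded by 4 members, and their near-identity bears on every value given for them. RBCS1A (AT1G67090) lies on chromosome 1, and RBCS1B (AT5G38430), RBCS2B (AT5G38420) and RBCS3B (AT5G38410) lie side by side on chromosome 5. Coding sequences of RBCS1A and each chromosome 5 copy matched at 90.4% to 90.6% of aligned bases, and the chromosome 5 copies matched one another at 96.7% to 97.3%. RBCS1B and RBCS3B share an unbroken run of 230 identical bases, so how reads were divided between them depended on the authors' treatment of reads that fit several places, which no source used here states. Coding positions 91 to 150, counted on RBCS1A from the A of the start codon, show where reads can be told apart. This stretch was picked because no other searched had more positions, 8, that differ among the chromosome 5 copies. It is therefore not typical: over 546 aligned coding bases those copies differed from one another at 15 to 18. Capitals mark the bases that differ among the copies, and all are from RefSeq's TAIR10.1 assembly, minus strand, 5′ to 3′.
RBCS1A: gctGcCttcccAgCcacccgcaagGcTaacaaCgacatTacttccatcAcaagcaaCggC
RBCS1B: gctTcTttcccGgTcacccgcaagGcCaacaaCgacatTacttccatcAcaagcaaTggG
RBCS2B: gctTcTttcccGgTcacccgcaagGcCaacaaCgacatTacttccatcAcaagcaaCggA
RBCS3B: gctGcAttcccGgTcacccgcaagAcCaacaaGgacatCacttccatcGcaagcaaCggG

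Fewer reads came from each of the 4 small subunit genes on day 12; the plastid gene of the large subunit was not analysed here. RBCS1A stood at 35.1, 14.6 and 24.5 CPM (counts scaled to a common library size with TMM factors) in day 7 replicates 1 to 3, and at 9.998, 7.45 and 6.56 in the day 12 replicates. All day 7 libraries were above all day 12 libraries, although day 7 replicate 2 held less than replicate 1 by more than the day 12 libraries differed from one another. The log2 change from day 7 to day 12 was -1.59 ± 0.33 (SE, n = 3 per day), with an adjusted p of 0.0139 by edgeR's quasi-likelihood test with Benjamini-Hochberg adjustment over all 18364 genes tested. Without day 12 replicate 2 the adjusted p was 0.0640 by edgeR.

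RBCS3B had 29, 16 and 19 reads on day 7 and 0, 0 and 1 read on day 12. Over each day's summed libraries, day 7 was 58.1-fold higher, with an exact 95% counting interval of 10.1 to 2331, and edgeR's adjusted p was 0.00508. The single day 12 read sat in replicate 3. The fitted log2 change of -5.47 ± 0.95 leaned on it, being -7.55 without that library, and -4.88 or -4.84 when day 12 replicate 1 or 2 was left out. RBCS3B passed the filter on low counts, which asks for at least 1.06 unscaled CPM in 3 libraries, through day 7 alone, so its call is part description.

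RBCS2B had 8, 8 and 2 reads on day 7, and RBCS1B had 5, 3 and 1. Neither gene had a read on day 12, and both fell short of the filter. Against a floor of 3 reads over the day 12 libraries, RBCS2B was at least 5.45-fold lower on day 12 and RBCS1B at least 2.72-fold lower. With no filter, edgeR gave adjusted p values of 0.0273 for RBCS2B and 0.0909 for RBCS1B. Counting intervals and floors cover counting error only.

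Per length, in the authors' TPM values (transcript abundance scaled by length), the 4 genes summed to 37.5, 23.2 and 29.2 on day 7 and to 11.5, 8.79 and 7.04 on day 12. RBCS1A held 80.4%, 81.4% and 89.7% of that sum on day 7. Its share was 100%, 100% and 96.7% on day 12, above all day 7 shares. With 3 libraries per day an exact permutation test cannot go below a p of 0.1, so the shares are given without one. In day 7 replicate 1, RBCS1A had 258 reads and 30.1 TPM, while RBCS1B had 5 reads and 1.36 TPM. The deposited counts and TPM did not follow the same reads in every gene. PGLP1 (AT5G36700), on the list of other photorespiration genes, had 0 reads in all 6 libraries but 0.53 TPM in day 12 replicate 1. How each measure divides the reads shared by the RBCS copies was not tested. These shares therefore need not hold for counts, and the low counts of the chromosome 5 copies carry the same limit.

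**Figure D1:**
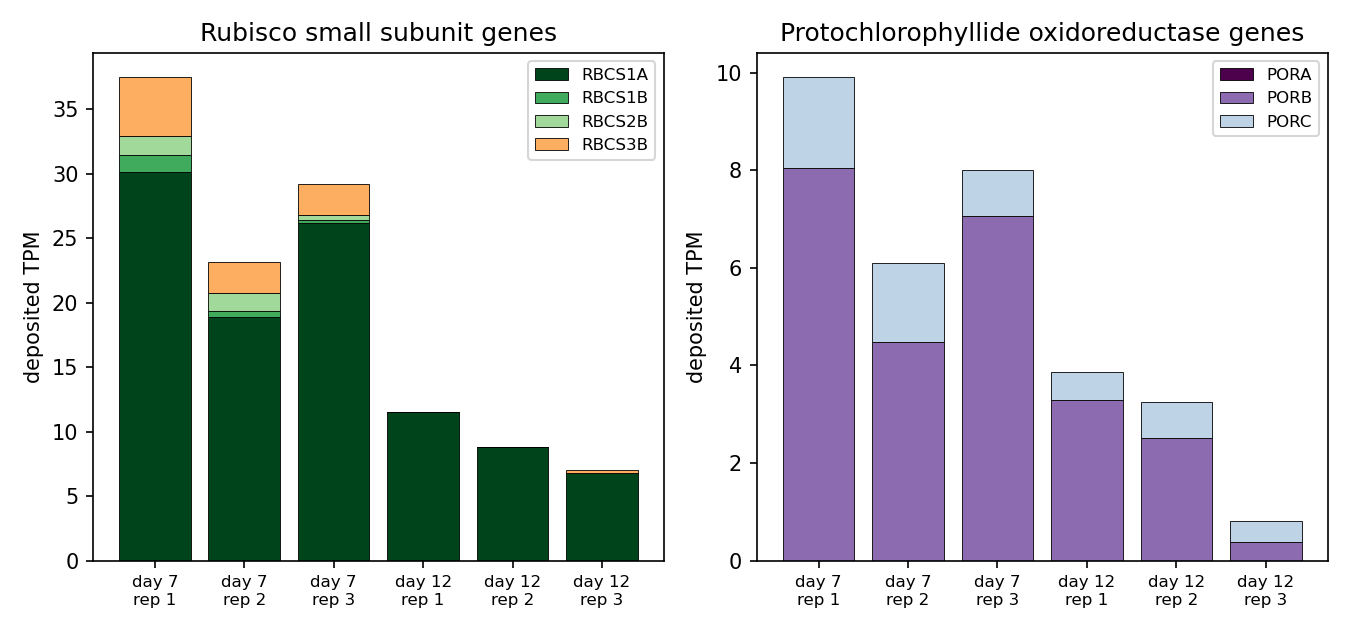
Stacked bars give deposited TPM (linear axis from 0) in each library for the Rubisco small subunit genes (left) and the protochlorophyllide oxidoreductase genes (right); each bar is 1 library. The chromosome 5 copies are visible in the day 7 bars and all but gone from the day 12 bars, and PORA has no bar because it was at 0 in all 6 libraries.

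RCA (AT2G39730) encodes Rubisco activase, which frees Rubisco's active site from blocking sugar phosphates. It was at 63.1, 51.8 and 32.5 CPM on day 7 and 26.6, 22.7 and 19.5 CPM on day 12. The days did not overlap, and the lowest day 7 library was replicate 3 rather than replicate 2. RCA fell by 1.08 ± 0.24 on the log2 scale (edgeR adjusted p = 0.0180). The call was lost, by edgeR, on leaving out day 7 replicate 2 (adjusted p = 0.0565), day 12 replicate 2 (0.0693) or day 12 replicate 3 (0.0535).

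The Calvin cycle enzymes that reduce and rebuild the carbon skeleton number 7 among the members, and 4 of them fell by edgeR, beside 12.5% of all genes tested. FBA1 (AT2G21330) and FBA2 (AT4G38970) encode chloroplast aldolases, which join triose phosphates into larger sugars. FBA1 was at 8.30, 5.30 and 4.87 CPM on day 7 and at 0.92, 1.53 and 1.48 CPM on day 12. Its lowest day 7 value was thus above its highest day 12 value, and the log2 change was -2.23 ± 0.36 (edgeR adjusted p = 0.00412), a call kept with any 1 library left out. FBA1 met the filter's minimum in every library of day 7 but in 2 of day 12, so its call is part description. Its edgeR adjusted p was 0.00144 with no filter. FBA2 was at 6.12, 3.41 and 1.66 CPM on day 7 and at 0.71, 0.10 and 0 CPM on day 12. It fell by 3.50 ± 0.82 on the log2 scale (edgeR adjusted p = 0.0170), and like RBCS3B it was admitted by the filter through day 7 alone, so the call is part description. With no filter edgeR gave it an adjusted p of 0.0115. Without day 12 replicate 1, the only day 12 library with more than 1 FBA2 read, the change was -5.54, and without day 7 replicate 1 it was -2.99 with an edgeR adjusted p of 0.0564.

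SBPASE (AT3G55800) encodes sedoheptulose-bisphosphatase, an enzyme peculiar to the regenerative phase of the cycle. It was at 7.62, 2.96 and 7.30 CPM on day 7 against 1.63, 0.96 and 1.69 CPM on day 12, with replicate 2 lowest on both days. The log2 change was -2.08 ± 0.45 (edgeR adjusted p = 0.0118). SBPASE too met the filter's minimum in every library of day 7 but in 2 of day 12, so its call is part description. Its edgeR adjusted p was 0.00512 with no filter. GAPA (AT3G26650) encodes the A subunit of chloroplast glyceraldehyde-3-phosphate dehydrogenase, which carries out the reducing step. Its values were 26.3, 17.6 and 18.7 CPM on day 7 and 10.7, 10.1 and 5.08 CPM on day 12, with no overlap. GAPA fell by 1.22 ± 0.27 on the log2 scale (edgeR adjusted p = 0.0142, and 0.0504 without day 7 replicate 1).

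GAPB (AT1G42970), the partner subunit, and PRK (AT1G32060), phosphoribulokinase, which makes the carbon acceptor, gave log2 changes of about the size of GAPA's but did not pass. GAPB was at 3.54, 1.53 and 3.10 CPM on day 7 and 1.33, 0.38 and 1.27 CPM on day 12 (log2 change -1.48 ± 0.55, edgeR adjusted p = 0.0761). PRK was at 5.03, 1.80 and 2.77 CPM on day 7 and 1.43, 0.67 and 1.27 CPM on day 12 (log2 change -1.50 ± 0.51, edgeR adjusted p = 0.0579). In neither gene did the days overlap, and replicate 2 was lowest on both days. With the replicate number as a block, both passed, at edgeR adjusted p values of 0.0306 for GAPB and 0.0268 for PRK. PRK also passed without day 7 replicate 2 (0.0474 by edgeR).

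HCEF1 (AT3G54050), the chloroplast fructose-bisphosphatase, was the Calvin cycle member whose fitted change went the other way. Its values were 2.72, 0.90 and 1.88 CPM on day 7 and 2.75, 3.92 and 1.91 CPM on day 12. The day 12 libraries overlapped day 7 replicate 1, and the log2 change of 0.71 ± 0.47 did not pass (edgeR adjusted p = 0.293).

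**Figure D2:**
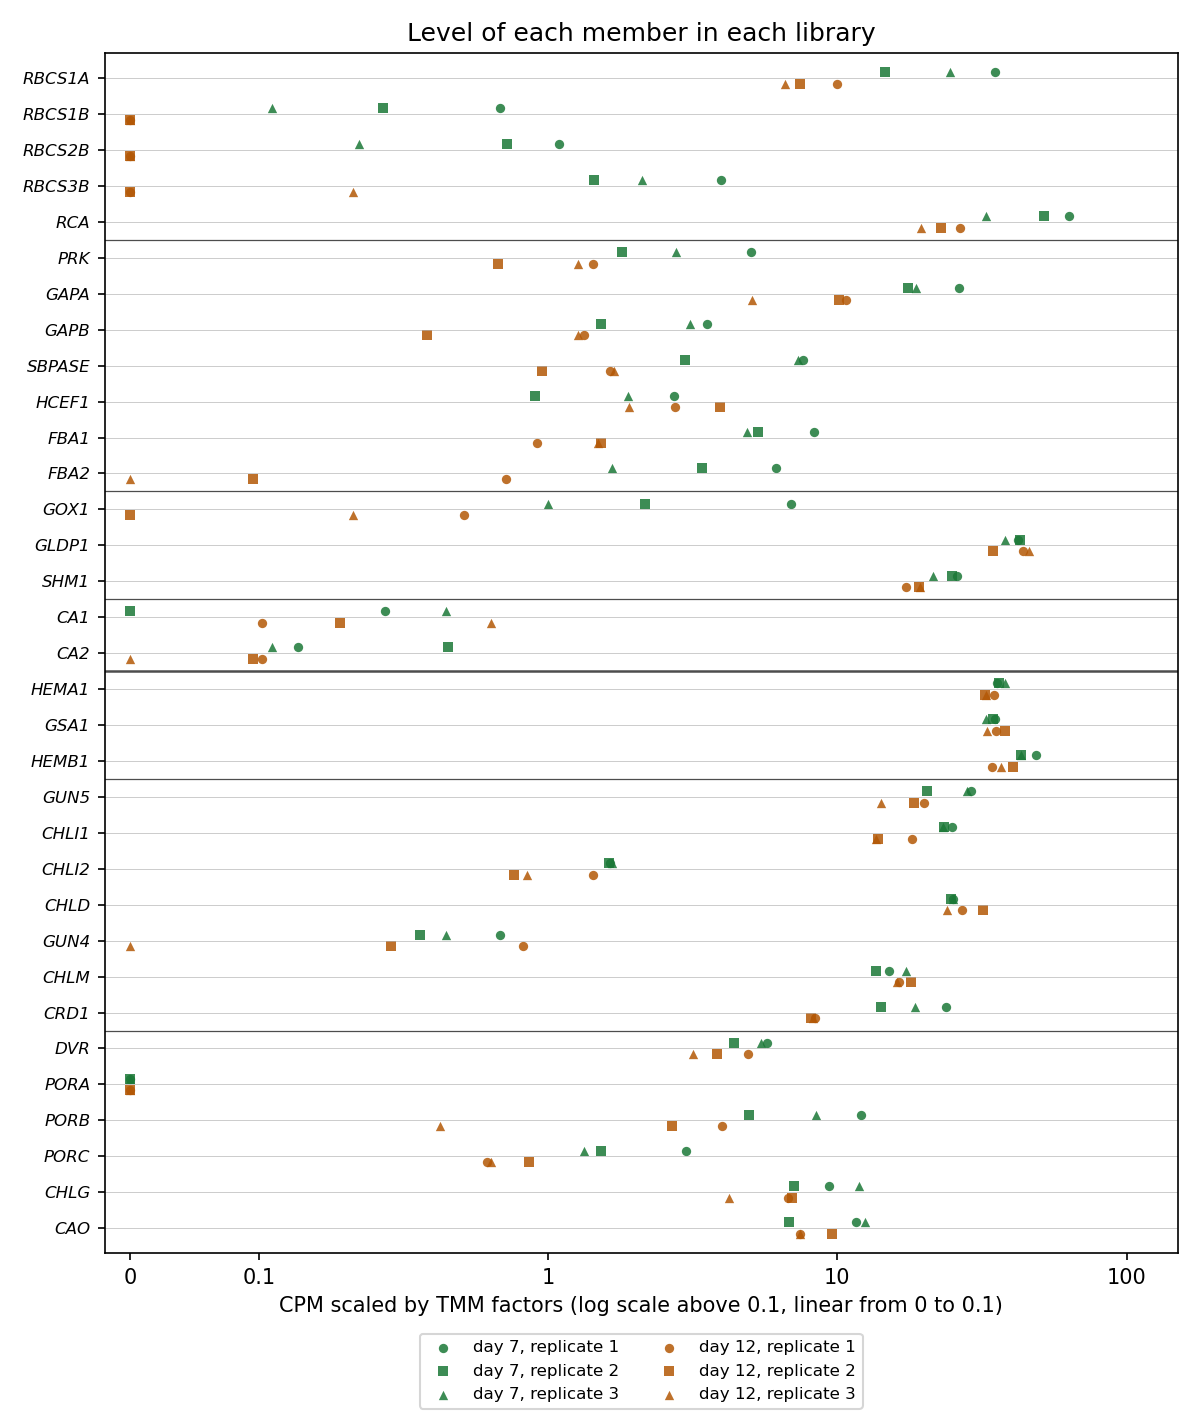
Each row is a member and each symbol a library, with CPM scaled by TMM factors on the horizontal axis (logarithmic above 0.1, linear from 0 to 0.1), grouped by role; symbols at 0 lie on top of each other. The carbon rows in the upper part show day 7 (green) to the right of day 12 (orange) for most genes, while HEMA1, GSA1, CHLD and CHLM in the lower part show both days together.

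Photorespiration members did not share one pattern. GOX1 (AT3G14420), a glycolate oxidase of the peroxisome, had 51, 24 and 9 reads on day 7 and 5, 0 and 1 reads on day 12, and did not reach the filter. Day 7 was 12.7-fold higher over summed libraries, with an exact 95% counting interval of 5.60 to 35.6. With no filter, edgeR gave GOX1 an adjusted p of 0.0384. Its 84 reads on day 7 were unevenly spread, and the lowest day 7 library still held more reads than the highest of day 12. GOX2 (AT3G14415), listed with the other photorespiration genes, was at 9.93, 5.66 and 4.54 CPM on day 7 and 3.98, 3.06 and 8.26 CPM on day 12. Its days overlapped, and it did not pass (log2 change -0.45 ± 0.43, edgeR adjusted p = 0.488). How alike GOX1 and GOX2 are in sequence was not measured here.

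GLDP1 (AT4G33010) encodes the P protein of mitochondrial glycine decarboxylase, and SHM1 (AT4G37930) the serine hydroxymethyltransferase that works beside it. GLDP1 was at 42.0, 42.9 and 37.8 CPM on day 7 and 43.7, 34.5 and 46.2 CPM on day 12. The days overlapped, and the log2 change was 0.01 ± 0.13 (edgeR adjusted p = 0.962), with a sign that turned under other scalings. SHM1 was at 25.98, 25.0 and 21.5 CPM on day 7 and 17.2, 19.2 and 19.3 CPM on day 12. Its days did not overlap, but the log2 change of -0.38 ± 0.13 missed the threshold (edgeR adjusted p = 0.0557). It passed with upper-quartile factors (0.0403 by edgeR) and with library sizes alone (0.0385 by edgeR).

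The carbonic anhydrases CA1 (AT3G01500) and CA2 (AT5G14740), which interconvert carbon dioxide and bicarbonate and are abundant in leaves, were nearly undetected on both days. CA1 had 2, 0 and 4 reads on day 7 and 1, 2 and 3 on day 12. CA2 had 1, 5 and 1 reads on day 7 and 1, 1 and 0 on day 12. With 3 reads standing for 0.269 to 0.635 CPM in a library, no change of either gene could be resolved at this depth.

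Of the 17 carbon members, 12 passed the filter, 7 fell and 0 rose by edgeR at an adjusted p under 0.05, while among all genes tested 12.5% fell and 12.7% rose. With the replicate block, 9 fell, against 13.8% of all genes. In 10 of the 12, all day 7 libraries were above all day 12 libraries, against 22.5% of all genes tested. The median log2 change of the 12 was -1.49, and that of all genes tested was 0.00 with 50.1% fitted below 0. Of the 12, RBCS3B and FBA2 were below the filter's minimum in all day 12 libraries, and 6 in all (with PRK, GAPB, SBPASE and FBA1) met it in every library of day 7 but not of day 12. RBCS3B, FBA2, SBPASE and FBA1 are among the 7 that fell, and PRK and GAPB among the block's 9, so these counts are part description. They describe the genes measured and not the whole list of 17.

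Chlorophyll synthesis begins with 3 members, and none of them passed the test by edgeR or any alternative run. HEMA1 (AT1G58290), glutamyl-tRNA reductase, is known as the main control point of the pathway, and GSA1 (AT5G63570) completes 5-aminolevulinate. HEMA1 was at 35.5, 36.2 and 37.8 CPM on day 7 and 34.8, 32.5 and 32.6 CPM on day 12. The days lay close together without overlap, and the log2 change of -0.13 ± 0.10 did not pass (edgeR adjusted p = 0.348). GSA1 was at 35.0, 34.4 and 32.6 CPM on day 7 and 35.4, 37.9 and 32.8 CPM on day 12, overlapping (log2 change 0.06 ± 0.10, edgeR adjusted p = 0.692). HEMB1 (AT1G69740), which joins aminolevulinate into the first pyrrole, was at 48.6, 43.0 and 43.2 CPM on day 7 and 34.2, 40.6 and 36.8 CPM on day 12. Its days did not overlap, yet the change of -0.27 ± 0.11 did not pass (edgeR adjusted p = 0.0994).

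The magnesium branch opens with magnesium chelatase, whose subunits are encoded by GUN5 (AT5G13630, the porphyrin-binding H subunit), CHLI1 (AT4G18480) and CHLI2 (AT5G45930) for the I subunit, and CHLD (AT1G08520) for the D subunit. CHLI1 fell, from 24.9, 23.4 and 23.2 CPM on day 7 to 18.2, 13.9 and 13.6 CPM on day 12. Day 7 libraries were tightly grouped and day 12 replicate 1 was the highest of its day. The log2 change was -0.64 ± 0.15 (edgeR adjusted p = 0.0138), and the call was lost without day 7 replicate 1 (0.0501 by edgeR) and on log2(TPM + 1) values (0.177 by limma).

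GUN5 was at 29.0, 20.4 and 28 CPM on day 7 and 20, 18.4 and 14.2 CPM on day 12. Day 7 replicate 2 came within a small margin of day 12 replicate 1, and the log2 change of -0.53 ± 0.18 missed the threshold (edgeR adjusted p = 0.0555). It passed with the replicate block (0.0457 by edgeR), without day 7 replicate 2 (0.0311), with no filter (0.0432), with upper-quartile factors (0.0422) and with library sizes alone (0.0442). CHLD was at 25.0, 24.8 and 25.1 CPM on day 7 and 27.0, 31.9 and 23.9 CPM on day 12, with overlap and a log2 change of 0.15 ± 0.13 (edgeR adjusted p = 0.411). The chelatase subunits therefore had fitted changes of both signs.

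CHLI2 was the minor I-subunit gene, at 1.63, 1.62 and 1.66 CPM on day 7 and 1.43, 0.76 and 0.85 CPM on day 12 (log2 change -0.66 ± 0.42, edgeR adjusted p = 0.282). CHLI1 held 91.8% to 94.2% of the summed TPM of the CHLI genes over the 6 libraries, with no separation of the days. GUN4 (AT3G59400), the chelatase activator, had 5, 4 and 4 reads on day 7 and 8, 3 and 0 on day 12, too few to resolve a change. CHLM (AT4G25080), the methyltransferase that follows the chelatase, was at 15.1, 13.7 and 17.3 CPM on day 7 and 16.3, 18.0 and 16.1 CPM on day 12. Its days overlapped, and the log2 change of 0.14 ± 0.14 did not pass (edgeR adjusted p = 0.524).

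CRD1 (AT3G56940) encodes the oxygen-dependent cyclase that closes the fifth ring of chlorophyll, and it had the lowest adjusted p of the chlorophyll members. It was at 23.7, 14.2 and 18.5 CPM on day 7 and at 8.37, 8.12 and 8.26 CPM on day 12. The day 12 libraries were almost equal and all were below the lowest day 7 library. CRD1 fell by 1.18 ± 0.20 on the log2 scale (edgeR adjusted p = 0.00494), a call kept with any 1 library left out.

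The last steps hold 6 members and 0 of the 5 tested passed by edgeR. Protochlorophyllide oxidoreductase, which needs light to work in flowering plants, is encoded by PORA (AT5G54190), PORB (AT4G27440) and PORC (AT1G03630). PORA, known from dark-grown seedlings, had 0 reads in all 6 libraries, which allows up to 0.109 CPM over day 7 and 0.120 CPM over day 12. PORB was at 12.1, 4.94 and 8.41 CPM on day 7 and 3.98, 2.67 and 0.42 CPM on day 12. No day 12 library reached the lowest day 7 library, and day 12 replicate 3, the shallowest library, was far below the other two. The log2 change of -1.71 ± 0.57 had an edgeR adjusted p of 0.0656, and of 0.0374 with the replicate block. By DESeq2 the adjusted p was 0.00797, and on log2(TPM + 1) values limma gave 0.000376.

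PORC was at 2.99, 1.53 and 1.33 CPM on day 7 and 0.61, 0.86 and 0.64 CPM on day 12. These values did not overlap, PORC met the filter's minimum through day 7 alone, and the log2 change of -1.40 ± 0.49 did not pass (edgeR adjusted p = 0.0653). PORB held 81.1%, 73.6% and 88.2% of the summed POR TPM on day 7 and 85.2%, 77.2% and 46.3% on day 12. In day 12 replicate 3 alone, PORC was thus the larger part, in a library where the POR genes summed to 0.82 TPM.

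DVR (AT5G18660), the divinyl reductase, CHLG (AT3G51820), chlorophyll synthase, and CAO (AT1G44446), which makes chlorophyll b, complete the pathway. CHLG was at 9.39, 7.09 and 11.8 CPM on day 7 and 6.73, 6.97 and 4.23 CPM on day 12, without overlap (log2 change -0.62 ± 0.27, edgeR adjusted p = 0.119). DVR was at 5.71, 4.40 and 5.42 CPM on day 7 and 4.90, 3.82 and 3.18 CPM on day 12, with overlap (log2 change -0.36 ± 0.27, edgeR adjusted p = 0.368). CAO was at 11.6, 6.83 and 12.5 CPM on day 7 and 7.45, 9.55 and 7.41 CPM on day 12, with overlap (log2 change -0.32 ± 0.26, edgeR adjusted p = 0.391). Day 7 replicate 2 was the lowest day 7 library for all of these.

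**Figure D3:**
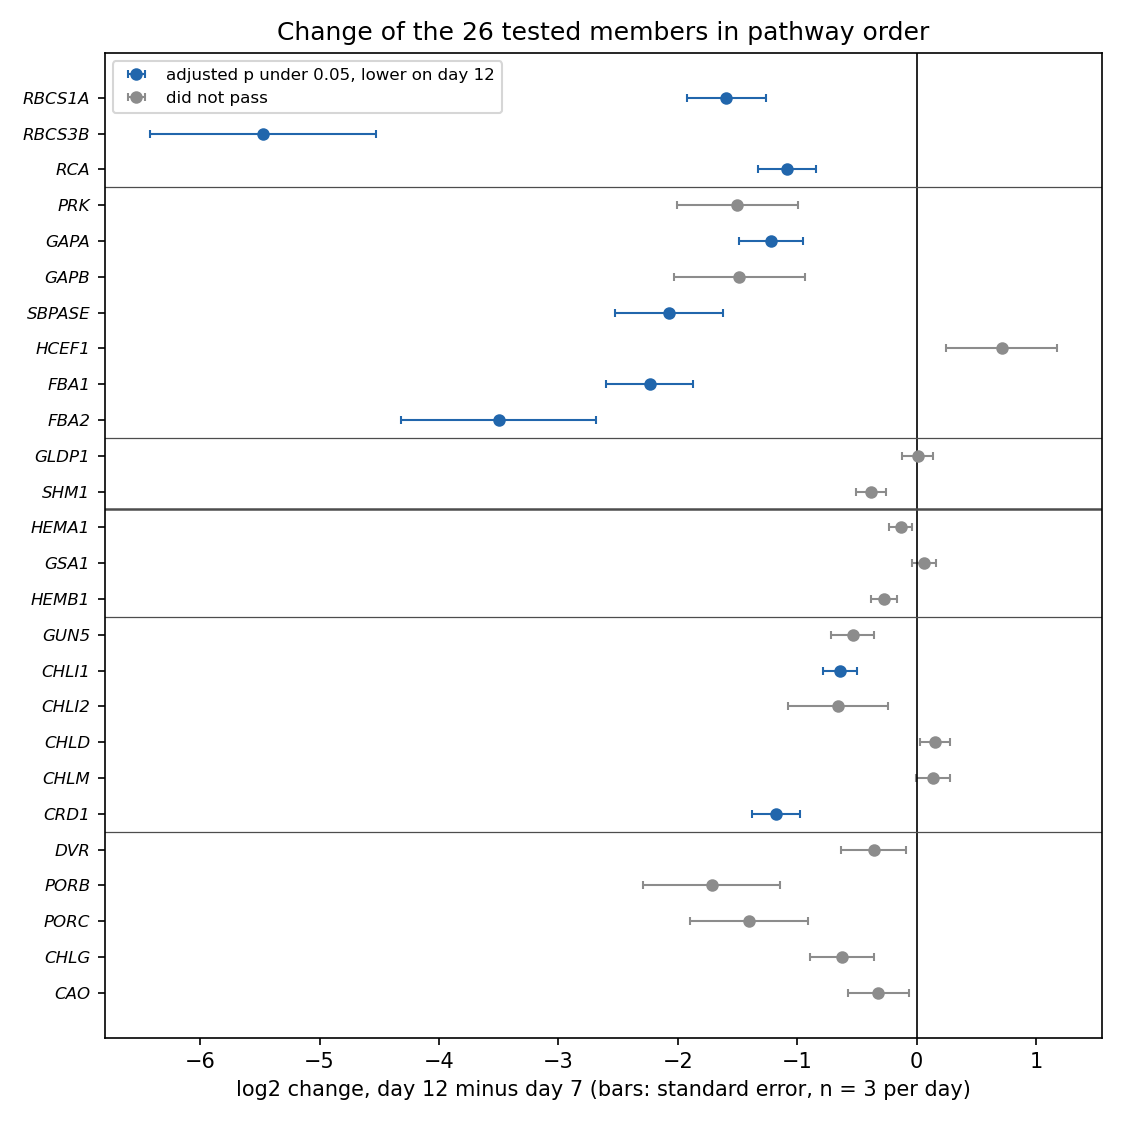
Points give the log2 change from day 7 to day 12 and bars its standard error (n = 3 per day) for the 26 members that passed the filter on low counts, in pathway order from top to bottom. Blue points passed edgeR's test: 7 lie in the upper, carbon part and 2, CHLI1 and CRD1, in the lower, chlorophyll part.

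Of the 16 chlorophyll members, 14 passed the filter, 2 fell and 0 rose, beside the 12.5% of all genes tested that fell. Their share of calls was close to that background. With the replicate block 4 fell, with GUN5 and PORB added, against the block's 13.8%. All day 7 libraries were above all day 12 libraries in 9 of the 14, against 22.5% of all genes tested, and the median log2 change was -0.45. CHLI2, PORB and PORC are among the 9 and met the filter's minimum in every library of day 7 but not of day 12, so the 9, and the block's call of PORB, are part description. Over all 33 members, 26 were tested, 9 fell and 19 had day 7 wholly above day 12. The count of carbon members was not tested against the count of chlorophyll members.

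Summed per length, the 17 carbon members reached 134, 127 and 108 TPM on day 7 and 73.0, 66.8 and 53.3 TPM on day 12. Those sums did not overlap. The 16 chlorophyll members summed to 147, 180 and 178 TPM on day 7 and 150, 166 and 118 TPM on day 12, and these did overlap. Summed in CPM they did not, at 281, 237 and 267 on day 7 and 220, 226 and 195 on day 12. The carbon members' CPM sums did not overlap either, so the 2 sets differ in this only on the TPM scale. Ribosomal RNA loci took 1.67% to 30.7% of a library's TPM, the most in day 7 replicate 1, which lowers the TPM of all other genes there.

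Mean levels in TPM (n = 3) put RCA (30.5), HEMB1 (29.3), RBCS1A (25.1) and GSA1 (24.3) highest among the members on day 7. On day 12 GSA1 (26.8) and HEMB1 (25.5) led, and RCA and RBCS1A stood at 15.7 and 9.04. FBA3 and TKL1, among the other genes listed for the Calvin cycle, stood far higher. FBA3 (AT2G01140), an aldolase known from plastids of non-green tissue, averaged 414 TPM on day 7 and 415 TPM on day 12. TKL1 (AT3G60750), a plastid transketolase that also serves the pentose phosphate pathway, averaged 135 and 136 TPM. Neither passed (edgeR adjusted p = 0.522 for FBA3 and 0.655 for TKL1), and both were named after their levels had been seen. In CPM, FBA3 had all day 7 libraries (588 to 592) above all day 12 libraries (553 to 572), while TKL1 overlapped.

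**Figure D4:**
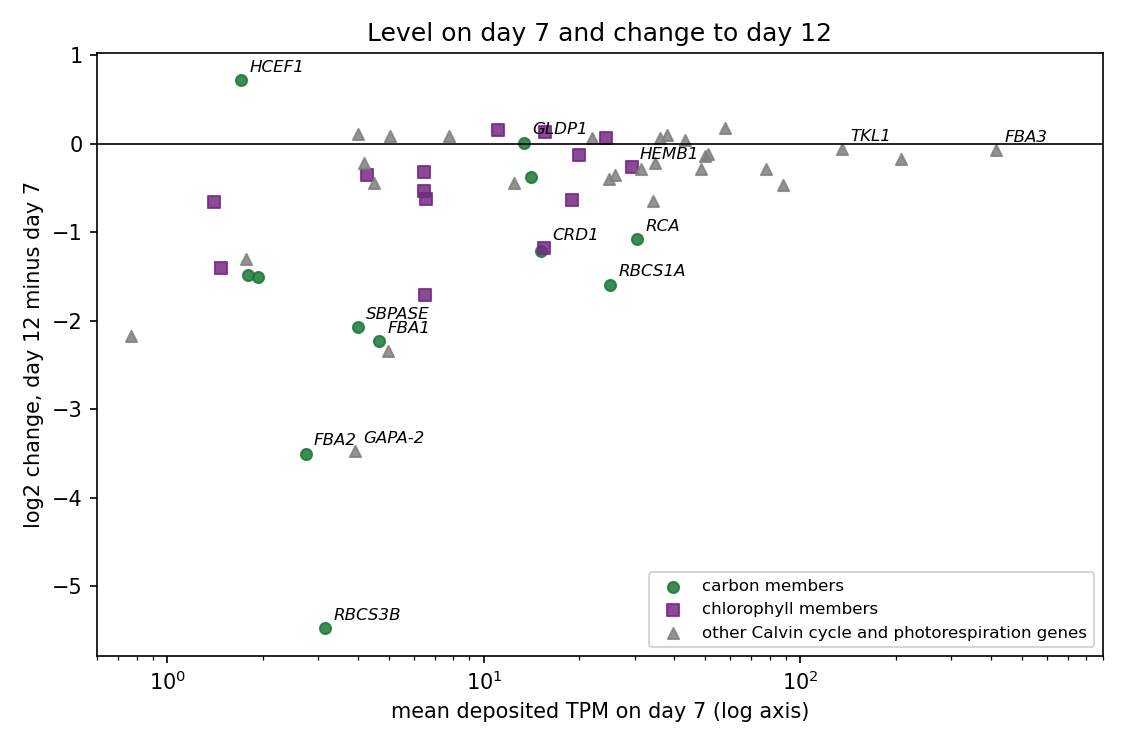
Each point is a tested gene, with its mean deposited TPM on day 7 on the horizontal axis (logarithmic, n = 3) and its log2 change from day 7 to day 12 on the vertical axis. Circles are carbon members, squares chlorophyll members and triangles the other Calvin cycle and photorespiration genes; FBA3 and TKL1 lie at the far right near a change of 0, and RBCS3B, FBA2 and GAPA-2 at the bottom.

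The other Calvin cycle genes, taken as a list of 15, had 14 tested, of which 2 fell and 0 rose by edgeR, a share near the 12.5% of all genes tested that fell. The median log2 change was -0.13, and the count was 1 without day 7 replicate 1 or 2. GAPA-2 (AT1G12900), a copy of GAPA, was at 5.71, 3.05 and 4.87 CPM on day 7 and 0.41, 0.48 and 0.21 CPM on day 12. The days were far apart, and the log2 change was -3.47 ± 0.46 (edgeR adjusted p = 0.00238). GAPA-2 met the filter's minimum through day 7 alone, so its call is part description, and with no filter edgeR gave 0.000583. RPI3 (AT3G04790), a plastid ribose-phosphate isomerase, was at 26.9, 25.1 and 21.5 CPM on day 7 and 17.6, 15.95 and 12.7 CPM on day 12 (log2 change -0.65 ± 0.15, edgeR adjusted p = 0.0165). Its edgeR adjusted p was 0.0655 without day 7 replicate 1 and 0.0528 without day 7 replicate 2.

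The other photorespiration genes, a list of 17 with 14 tested, had 4 that fell and 0 that rose, beside 12.5% and 12.7% of all genes tested, with a median log2 change of -0.37. The count was 6 with the replicate block. It fell to 1 without day 7 replicate 1 or day 12 replicate 2, and to 2 without day 7 replicate 2 or day 12 replicate 3. GLDT (AT1G11860), the T protein of glycine decarboxylase, was at 118, 115 and 110 CPM on day 7 and 81.7, 77.7 and 88.5 CPM on day 12. Its log2 change was -0.47 ± 0.09 (edgeR adjusted p = 0.00645), but on log2(TPM + 1) values limma gave an adjusted p of 0.361, and 0.0155 after ribosomal RNA loci were taken out of the TPM total. GDCH (AT2G35370), an H protein of the same complex, was at 6.26, 2.42 and 2.21 CPM on day 7 and 1.02, 0.29 and 0.85 CPM on day 12, a log2 change of -2.34 ± 0.61 (edgeR adjusted p = 0.0231). Without day 7 replicate 1 GDCH gave -1.73 (0.0869 by edgeR) and without day 12 replicate 2 it gave -1.89 (0.0630). It too met the filter's minimum through day 7 alone, and with no filter edgeR gave 0.0139. GLDP2 (AT2G26080), the other P-protein gene, was at 201, 200.1 and 190.1 CPM on day 7 and 242, 202 and 225 CPM on day 12, just without overlap, and did not pass (log2 change 0.18 ± 0.09, edgeR adjusted p = 0.200). GLDP2 is named after its values were seen, since the fitted changes of the glycine decarboxylase genes given here ran from its 0.18 to -2.34 in GDCH. SHM2 (AT5G26780) fell by 0.28 ± 0.08 on the log2 scale (edgeR adjusted p = 0.0321) but missed the threshold with any 1 library left out, at 0.0516 to 0.0993, and by DESeq2 (0.0623). GGT2 (AT1G70580), a glutamate-glyoxylate aminotransferase, was the other call (edgeR adjusted p = 0.0448, and 0.0562 with the replicate block) and is named here after its values were seen.

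The other tetrapyrrole synthesis genes, a list of 17, were all tested, and 3 fell while 2 rose, near the 12.5% and 12.7% of all genes tested. The median log2 change was -0.03, and the count of calls fell from 5 to 1 without day 7 replicate 1 and to 3 without day 12 replicate 1. HEMB2 (AT1G44318), a second gene annotated for the HEMB1 step, was at 2.04, 4.13 and 1.77 CPM on day 7 and 11.7, 7.55 and 10.4 CPM on day 12. All day 12 libraries were above day 7, with a log2 change of 1.86 ± 0.35 (edgeR adjusted p = 0.00712) that passed with any 1 library left out. HEMF2 (AT4G03205), annotated for a later porphyrin step, rose by 0.50 ± 0.14 on the log2 scale (edgeR adjusted p = 0.0303). HEMF2 missed the threshold without day 7 replicate 1 (0.106), day 7 replicate 2 (0.105), day 12 replicate 1 (0.0901) and day 12 replicate 2 (0.0635).

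HEMA3 (AT2G31250), a minor glutamyl-tRNA reductase gene, fell from 3.81, 3.23 and 3.65 CPM on day 7 to 1.53, 0.86 and 1.06 CPM on day 12 (log2 change -1.61 ± 0.36, edgeR adjusted p = 0.0134). GSA2 (AT3G48730), the partner of GSA1, fell from 23.9, 18.6 and 19.5 CPM to 13.4, 13.6 and 13.3 CPM (log2 change -0.62 ± 0.14, edgeR adjusted p = 0.0146). HEMA3 met the filter's minimum in every library of day 7 but in 1 of day 12, so its call is part description. Both calls were lost without day 7 replicate 1, at edgeR adjusted p values of 0.0507 for HEMA3 and 0.0554 for GSA2. GGR (AT1G74470), which makes the phytol tail of chlorophyll, fell by 0.63 ± 0.19 on the log2 scale (edgeR adjusted p = 0.0417). With the replicate block GGR's edgeR adjusted p was 0.0832, and it was 0.102 to 0.128 when replicate 1 or 3 of either day was left out.

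Routes that branch from or undo the pathway had 1 call each, beside the 12.5% of all genes tested that fell. On the haem and bilin list of 7, with 5 tested, FC2 (AT2G30390), the ferrochelatase known from green tissue, fell by 0.48 ± 0.14 on the log2 scale (edgeR adjusted p = 0.0383). On the chlorophyll breakdown list of 10, with 8 tested, PAO (AT3G44880), which opens the pheophorbide ring, fell by 0.62 ± 0.17 (edgeR adjusted p = 0.0264). FC2 missed the threshold in 5 of the 6 fits with 1 library left out, the exception being without day 12 replicate 3, with adjusted p values up to 0.115, and DESeq2 gave it 0.0630. PAO missed it in 4 of the 6, all but those without day 7 replicate 3 and day 12 replicate 2, with values up to 0.104. The medians were -0.02 for the haem and bilin list and 0.16 for the breakdown list.

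Total counts were 4927953 to 10746277 per library, with day 12 replicate 3 the shallowest. The marker lists are to be read beside the 12.5% of all genes tested that were lower and the 12.7% that were higher. Of 9 callus regulators, 7 were tested and 2 (LBD16 and SCR) were lower, and PLT1 was higher with the replicate block only (edgeR adjusted p = 0.0406 against 0.129). The list summed to 493 to 588 CPM on day 7 and 448 to 557 CPM on day 12, most of it from PLT1, SHR, SCR and PLT2. LBD29 had 24, 20 and 7 reads on day 7 and 3, 1 and 0 on day 12, and LBD17 had 9, 6 and 5 and then 0, 10 and 3. Mesophyll markers, 10 light-harvesting genes, summed to 207 to 332 CPM on day 7 and 123 to 197 CPM on day 12, with 7 of 10 lower and none at 0 in any library. LHCB1.1 and LHCB2.1, among the 7, met the filter's minimum through day 7 alone. With the replicate block 5 were lower, as LHCB4.1 (edgeR adjusted p = 0.0875) and LHCA1 (0.0608) lost their calls. Of 5 guard cell markers, 2 were tested, with KAT1 lower and MPK12 higher, and the list summed to 13.0 to 18.1 and 13.3 to 23.5 CPM. Of those sums MPK12 alone gave 7.99 to 10.5 and 11.9 to 22.1 CPM. Among the untested, FAMA had 12, 15 and 7 reads on day 7 and 2, 4 and 2 on day 12. MYB60 had 12, 17 and 2 and then 8, 1 and 3, and HT1 had 5, 6 and 3 and then 5, 6 and 2. Of 5 leaf senescence markers, 4 were tested, with SAG13 lower and NAC092 and NAP higher; the list summed to 63.5 to 70.4 CPM on day 7 and 87.9 to 118 CPM on day 12, and SAG12 had at most 1 read in a library. SAG101 was higher with the replicate block only (edgeR adjusted p = 0.0316 against 0.0750). KAT1 and SAG13 met the filter's minimum through day 7 alone. The part of these marker changes in the members' falls was not tested, and in bulk RNA fewer cells of a type and less RNA per cell cannot be told apart.

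Libraries of 1 day also differed from one another in a shared way. Day 7 replicate 1 was the highest day 7 library for 11 of the 12 tested carbon members and for 19 of the 26 tested members, and replicate 2 was the lowest for 17 of the 26. Over all genes tested, replicate 1 was highest for 6248 of 18364 and replicate 2 lowest for 6121. On day 12, replicate 3 was the lowest for 14 of the 26. Ribosomal RNA loci took 2.90%, 0.121% and 1.60% of the counts in day 7 replicates 1 to 3 and 1.82%, 0.422% and 3.90% on day 12, and whether that share bears on the members was not tested.

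Promoters of the members were read for the motifs best known from light-regulated plant genes. The G-box is CACGTG, a palindrome, and the I-box core is GATAAG, searched on both strands. Neither motif contains the other. In the window from 250 bases before to 50 bases after the annotated start, a G-box was found in 6 of the 33 members (18.2%), namely RBCS2B, PRK, HCEF1, GLDP1, CRD1 and CAO, and in 7.68% of 27443 protein-coding genes. An I-box core was found in 9 members (27.3%) and in 14.6% of those genes, and both motifs in 3 members (9.09%) and 1.29%. These shares are descriptions, without a test.

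The 150 bases before the start are printed for 4 of the members with a G-box, chosen because their values differ in kind: RBCS2B had no read on day 12, CRD1 fell, GLDP1 had overlapping days and HCEF1 had a fitted change above 0. All are from RefSeq's TAIR10.1 annotation, 5′ to 3′ towards the start, with both motifs in capitals on either strand (CTTATC is the I-box core read from the other strand).
RBCS2B (chr5:15382072-15382221, minus strand): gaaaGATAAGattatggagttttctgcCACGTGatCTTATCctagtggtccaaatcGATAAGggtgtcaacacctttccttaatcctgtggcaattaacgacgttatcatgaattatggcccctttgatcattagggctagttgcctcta
CRD1 (chr3:21076355-21076504, plus strand): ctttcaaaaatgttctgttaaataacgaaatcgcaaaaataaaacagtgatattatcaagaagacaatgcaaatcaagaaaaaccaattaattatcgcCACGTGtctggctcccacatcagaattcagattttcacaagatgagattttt
GLDP1 (chr4:15931423-15931572, minus strand): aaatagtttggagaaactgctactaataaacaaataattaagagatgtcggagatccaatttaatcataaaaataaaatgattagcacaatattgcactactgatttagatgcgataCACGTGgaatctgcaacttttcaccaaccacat
HCEF1 (chr3:20016687-20016836, plus strand): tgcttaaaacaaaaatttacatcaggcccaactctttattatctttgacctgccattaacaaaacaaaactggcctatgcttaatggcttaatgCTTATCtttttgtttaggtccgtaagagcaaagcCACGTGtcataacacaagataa

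CRD1 was the 1 of the 6 members with a G-box that passed edgeR's test with the filter on low counts. Of the other 8 members that fell, RCA and CHLI1 have 1 I-box core each in the window, CHLI1's lying after the annotated start, and RBCS1A, RBCS3B, FBA1, FBA2, SBPASE and GAPA have neither motif. The latter says only that these letters are not in this window.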

How the data were processed

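RNA was measured in 6 callus libraries, 3 of day 7 and 3 of day 12, made from 1 µg of total RNA with a TruSeq kit, per the labels' protocols. The authors deposited raw counts per locus (whole numbers) and TPM values, both for 36793 loci. Per the submitters' processing notes, the tools were STAR 2.7.10a and RSEM 1.3.1, with genome build TAIR10. No source used here states the strand setting, the annotation version or how reads that fit several places were handled. How ambiguous reads of near-identical, overlapping or antisense genes were assigned is therefore unknown, and the counts of such genes may hold one another's reads. Each column name matched 1 sample title, and 0 columns were left over.

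Tests on the deposited counts used edgeR 4.0.16 (R 4.3.3): filterByExpr, which left 18364 genes, TMM factors of 0.960 to 1.04, and a robust quasi-likelihood fit with day as the only term. Adjusted p-values are Benjamini-Hochberg over all genes tested, at 0.05. The same factors scale the CPM values. Library totals ran from 4927953 to 10746277, so that 3 counts stand for 0.269 to 0.635 CPM. No 2 libraries of a day agreed within counting noise. Alternatives used other scalings and filters, DESeq2 1.42.0, limma 3.58.1 on counts and on log2(TPM + 1), a replicate block, and each library left out in turn.

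Deviations from the day means correlated at 0.151, 0.156 and 0.244 for replicates 1, 2 and 3 with their namesakes of the other day, and at -0.162 to 0.00563 for differently numbered libraries. On these values, and not from the labels, the numbers may pair the libraries. The main fit left such a pairing out, and only the fit with the replicate block used it. That fit gave 9 carbon and 4 chlorophyll calls, against 7 and 2 in the main fit.

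Sequences, motifs and identities come from RefSeq TAIR10.1 by locus identifier, where 36629 loci matched. The deposited tables hold no coordinates, and TAIR10.1 differs in name from the build in the notes. Of the listed pathway genes, 1 plastid identifier, that of the Rubisco large subunit gene RBCL (ATCG00490), had no match and was not used. RBCL is in the count table, and it met the filter's minimum in 2 libraries of day 7 and 3 of day 12.

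Every member is accounted for. Each other list contributes at most 3 called genes per direction, those with the smallest adjusted p. FBA3, TKL1, GOX2, GLDP2, GGT2 and PGLP1 fall outside this rule and were named after their values were seen, as were the marker genes given by name. The members and lists were chosen with earlier results of these data known. On simulated counts for this comparison (18233 genes), 14 of 67 genes with a 1.5-fold change were recovered, 39 of 67 with a 2-fold change and 63 of 66 with a 4-fold change. Of 133 calls, 17 were genes left unchanged. The simulation changed 200 genes, while 4616 were called in the data. The adjustment over all genes therefore differs between them, and these recoveries need not be those of the data.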

Additional observations from a re-analysis of the deposited data

How the results depend on the processing

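Over all genes, 4616 differed by edgeR, with 2292 lower and 2324 higher. This was 2090 on log2(TPM + 1) values (572 lower, 1518 higher), 2069 on log2(TPM + 0.1) values (573 lower, 1496 higher), and 693 on log2(TPM + 1) with no filter (209 lower, 484 higher), by limma. With ribosomal RNA loci taken out of the TPM total it was 3816 (1771 lower, 2045 higher). It ran from 2529, without day 7 replicate 1, to 4342 with 1 library left out. The 7 carbon calls became 5 to 8 with 1 library left out (5 without day 7 replicate 1 or day 12 replicate 2) and 6 to 9 otherwise. The 2 chlorophyll calls became 1 without day 7 replicate 1 and 3 without day 7 replicate 2, 1 on log2(TPM + 1) with no filter, and 4 with the replicate block. Of 468 values of single members under the alternatives, 436 kept their direction and side of the threshold. GLDP1, at 0.01, turned to -0.026 under upper-quartile scaling, -0.037 on unscaled library sizes and -0.015 with limma-voom, and ran from -0.065 to 0.13 with 1 library left out. On log2(TPM + 1) values, filtered or not, TKL1 turned to 0.0073 and FBA3 to 0.011, and on log2(TPM + 0.1) values to 0.0073 and 0.011. The cause was not tested. A log2(TPM + 1) scale understates low genes, giving -1.91 for RBCS3B and -1.63 for FBA2. There, GLDT, RPI3, SHM2, HEMA3, GSA2, GGR, HEMF2, FC2 and PAO missed the threshold (adjusted p of 0.108 to 0.711 by limma), and with no filter RCA (0.0888) and GAPA (0.0663) did too. The median log2 change of all genes was at most 0.0789 in size under every setting run. RBCS1B, RBCS2B, CA1, CA2, GUN4 and PORA had a few reads or none in each library. Depth, low expression and, for the RBCS copies, the handling of shared reads were not told apart.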
